A study of Mus musculus with 26 samples.

Results

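The genes described here encode the proteins that fold interphase chromosomes into loops. They are 10 genes taken by name: the cohesin ring subunits *Smc1a*, *Smc3*, *Rad21*, *Stag1*, and *Stag2*, the cohesin loader *Nipbl*, the ring regulators *Pds5a* and *Pds5b*, and the DNA-binding factors *Ctcf* and *Yy1*. Of these, 8 are among the 15646 genes of the RNA-seq table, and the same 8 give their name to one of the 19022 baited fragments of the Promoter Capture Hi-C (PCHi-C) lists. *Smc1a* and *Smc3*, the paired ATPase arms of the ring, were not analysed here for RNA and have no bait under their own name. The question was which levels these genes had in 3 mouse pluripotent cell states, and how their own promoters were wired in contact lists that differ in reach.

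WT embryonic stem cells (ESCs) were E14Tg2a cells (129P2/OlaHsd), and *Nanog*-/- ESCs were the E14Tg2a-derived RCNβH-B(t) line, a line without the pluripotency factor NANOG that was kept under hygromycin during expansion. Both grew on gelatin in serum with LIF. Epiblast-derived stem cells (EpiSCs), the primed counterpart of ESCs, were of 129S2 origin and grew on fibronectin in N2B27 with Activin A and bFGF, so cell state, strain, and medium cannot be told apart in the EpiSC comparison. The strain field of the labels instead gives C57BL/6 for every sample. The *Nanog*-/- state rests on 1 derived line, so the mutation and the line's own history cannot be told apart either. RNA-seq was labelled for 3 WT ESC, 4 EpiSC, and 3 *Nanog*-/- ESC samples, and PCHi-C for 5, 2, and 5 sequencing lanes.

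Cohesin is a ring that holds DNA and is thought to extrude it into loops. NIPBL loads the ring and drives its movement, PDS5 proteins sit on the ring and regulate its hold and release, and the STAG subunit is the part that contacts CTCF. CTCF bound to its asymmetric motif halts the ring, and loops form mostly between motifs that point toward each other. YY1 binds active promoters and enhancers and helps to bridge them. In PCHi-C, ligated HindIII fragments are pulled down by promoter baits, and a contact is listed when its reads exceed the background for its distance by a CHiCAGO score of at least 5.

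Sequence of the contacted fragments was read from GRCm38 for the letters of the CTCF core motif on both strands, which were CC, any base, C, any base, AG, any 2 bases, and GGC. The clearest arrangement was at *Nipbl*, and it is shown because its ends are those of a contact listed in both WT ESCs and EpiSCs. The *Nipbl* bait (chr15:8438172-8450452, which holds the start of the gene) has 1 match, on the plus strand, and the intergenic fragment upstream of the gene (chr15:8583817-8590672) has 1 match, on the minus strand, so that the matches point toward each other across the contact. Both fragments are long, 12281 and 6856 bases, and of fragments of like length 36.4% and 21.1% carried a match. Each window is printed on the strand of its match, with the match in capitals; the first lies at chr15:8446582-8446611 (plus) and the second at chr15:8589929-8589958 (minus).
Nipbl bait: gtggccttgCCCCTAGTGGGCtaattcata
Nipbl other end: caggatctgCCACCAGAGGGCactgacgca

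Matches of this kind showed neither a clear excess nor a clear lack among the contacts, with so few fragments. They occurred in 2 of 8 baits (*Nipbl* and *Rad21*), where fragments of like length carried a match in 16.8% on average, and in 4 of 32 other ends (12.5%, against 16.0%). Of all 96056 fragments of the lists, 11.5% have one. The other matches among the other ends were at *N4bp2l1* and *Kl*, both in contact with the *Pds5b* promoter in WT ESCs, and at *Slc25a29*, in contact with the *Yy1* promoter in *Nanog*-/- ESCs. A match is a run of letters and not a measured binding site.

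RefSeq promoters (GRCm38.p6, 250 bases before to 50 bases after the start) were matched for 7 of the 10 genes, all but *Rad21*, *Stag2*, and *Nipbl*. The letters of the YY1 core motif, AANATGGC on either strand, occurred in 4 of those 7, *Ctcf*, *Smc3*, *Pds5b*, and *Stag1*, and in 6.04% of all 32817 promoters. The CTCF letters occurred in none of the 7 and in 2.43% of all promoters. The 4 windows are shown, on the plus strand, because YY1 is itself a member and 3 of them place the same run of letters near the start. Counted from the RefSeq start, the capitals begin at base 11 in *Ctcf*, at base 1 in *Smc3*, and at base -37, before the start, in *Pds5b*. In *Stag1* they begin at base -202 of a RefSeq start that lies inside the gene as GENCODE draws it and outside the *Stag1* bait. By the GENCODE starts (chr8:105636568 and chr5:150673739), the *Ctcf* match lies before the start and the *Pds5b* match after it.
Ctcf, chr8:105636537-105636566: accgcgccgccGCCATTTTgtgtccgagcc
Smc3, chr19:53600385-53600414: ccgcggccgccGCCATTTTgtttggccaca
Pds5b, chr5:150673779-150673808: ctgctcttggcGCCATTTTgaagcggagag
Stag1, chr9:100643235-100643264: gagaagctctaAAAATGGCgggcggcaacc

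RNA levels are the authors' median of each group in RPKM (reads scaled to gene length and library size), with no replicate values, so no level is given with an error and no ratio with a test; the authors' own test columns were not used. EpiSC medians ran high across the table, with a median EpiSC/WT ratio of 1.89 over 9077 genes at 1 RPKM or more in both, and were divided by that ratio for every comparison. The median *Nanog*-/-/WT ratio was 1.05, and *Nanog*-/- values were left as deposited. In such bulk RNA, fewer cells of a type and less RNA per cell cannot be told apart.

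The loop architecture genes were nearly level between WT and *Nanog*-/- ESCs. None of the 8 passed 1.5-fold in either direction, where 22.3% of 10175 genes did. Their log2 ratios ran from -0.16 to 0.48 with a median of 0.10, and the median over all genes was 0.08. In EpiSCs, 1 of 8 passed 1.5-fold, *Stag2*, where 54.9% of 10532 genes did and 28.8% were higher. The EpiSC ratios ran from -0.33 to 0.90 on the log2 scale with a median of 0.07, beside 0.01 over all genes.

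**Figure D1:**
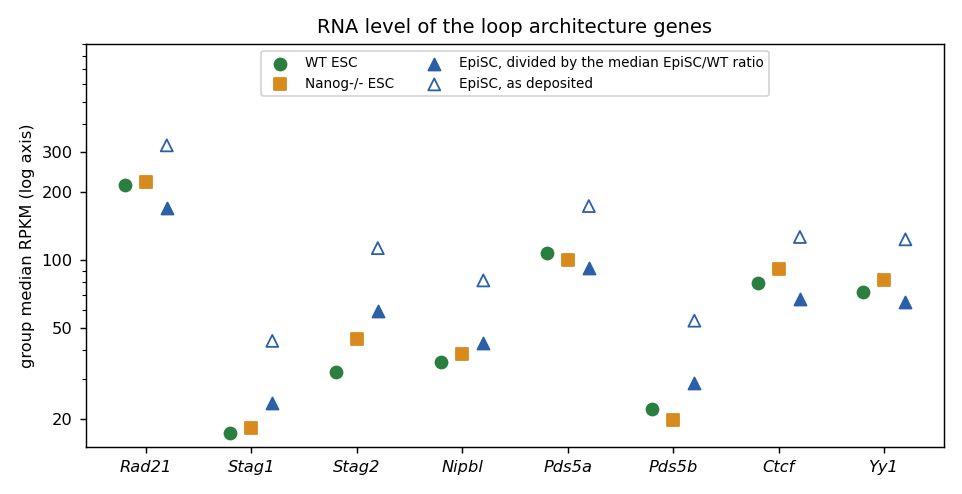
Group median RPKM (log axis) of the 8 loop architecture genes in WT ESCs, Nanog-/- ESCs, and EpiSCs, the last both as deposited (open triangles) and divided by the median EpiSC/WT ratio of 1.89 (filled). Points are the authors' medians and carry no error; Rad21 is the highest in each state, and the WT and Nanog-/- points lie next to each other for each gene, farthest apart for Stag2.

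*Rad21*, the kleisin that closes the ring, was the most abundant of the 8 in each state. Its median was 214.5 RPKM in WT ESCs, 221.3 RPKM in *Nanog*-/- ESCs, and 321.3 RPKM in EpiSCs, or 170.4 RPKM after scaling. The *Nanog*-/- level was 1.03 times that of WT ESCs and 8.65% of genes changed less. The log2 ratio of 0.05 becomes -0.02 if the *Nanog*-/- values are scaled as the EpiSC values were.

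*Stag1* and *Stag2* encode alternative subunits, of which a ring holds one. *Stag2* stood at 32.2 RPKM in WT ESCs, 45.0 RPKM in *Nanog*-/- ESCs, and 113.1 RPKM in EpiSCs (60.0 RPKM scaled). These are ratios to WT ESCs of 1.40 in *Nanog*-/- ESCs and 1.86 in EpiSCs, the largest change of the 8 in each comparison. In *Nanog*-/- ESCs it was larger than the change of 71.2% of all genes, and in EpiSCs larger than that of 59.9%. *Stag1* stood at 17.2, 18.3, and 44.1 RPKM in WT ESCs, *Nanog*-/- ESCs, and EpiSCs (23.4 RPKM scaled), with ratios of 1.06 and 1.36.

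Ratios between 2 genes of the same state need no scaling, but they do not remove any dependence of the EpiSC values on expression level. *Stag2* exceeded *Stag1* by 1.87 times in WT ESCs, 2.47 times in *Nanog*-/- ESCs, and 2.57 times in EpiSCs. The summed *Stag1* and *Stag2* level was 0.230 of the *Rad21* level in WT ESCs, 0.286 in *Nanog*-/- ESCs, and 0.489 in EpiSCs. STAG RNA stood highest relative to that of the kleisin in EpiSCs, and *Nanog*-/- ESCs lay between, closer to WT ESCs.

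*Nipbl*, the loader, had 35.4 RPKM in WT ESCs, 38.5 RPKM in *Nanog*-/- ESCs, and 81.4 RPKM in EpiSCs (43.2 RPKM scaled), which are ratios of 1.09 and 1.22. Its level relative to *Rad21* was 0.165, 0.174, and 0.253 in the same order. *Wapl* (listed as *Wapal*), which opens the ring and unloads it, stood at 92.4, 99.0, and 105.7 RPKM. The *Wapl* level was 2.61 times that of the loader in WT ESCs, 2.57 times in *Nanog*-/- ESCs, and 1.30 times in EpiSCs. Among these pairs the ratio of unloader to loader differed most in EpiSCs and hardly between the ESC lines.

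The PDS5 genes were the only members below their WT ESC level in *Nanog*-/- ESCs as deposited. *Pds5a* had 107.3 RPKM in WT ESCs, 100.3 RPKM in *Nanog*-/- ESCs (ratio 0.935), and 173.4 RPKM in EpiSCs (92.0 RPKM scaled, ratio 0.857). *Pds5b* had 22.1, 19.7, and 54.1 RPKM (28.7 RPKM scaled), with ratios of 0.894 and 1.30. *Pds5a* was 4.86 times *Pds5b* in WT ESCs, 5.08 times in *Nanog*-/- ESCs, and 3.21 times in EpiSCs.

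*Ctcf* had 79.1 RPKM in WT ESCs, 91.1 RPKM in *Nanog*-/- ESCs (ratio 1.15), and 126.7 RPKM in EpiSCs (67.2 RPKM scaled, ratio 0.850). *Yy1* had 72.8, 82.1, and 123.6 RPKM (65.6 RPKM scaled), with ratios of 1.13 and 0.901. Relative to *Rad21*, *Ctcf* stood at 0.369 in WT ESCs, 0.411 in *Nanog*-/- ESCs, and 0.394 in EpiSCs. In EpiSCs the order of the ratios separated *Stag2*, *Stag1*, *Pds5b*, and *Nipbl*, above WT ESCs, from *Yy1*, *Pds5a*, *Ctcf*, and *Rad21*, below. As deposited, without scaling, all 8 are above WT ESCs, the last 4 by log2 ratios of 0.58 to 0.76. The first 4 were also the lowest of the 8 in WT ESCs (17.2 to 35.4 RPKM), and the last 4 the highest (72.8 to 214.5 RPKM). Over all genes the median EpiSC/WT ratio was 1.89 at 1 RPKM or more and 1.70 at 10 RPKM or more. Whether expression level bears on this split was not tested.

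**Figure D2:**
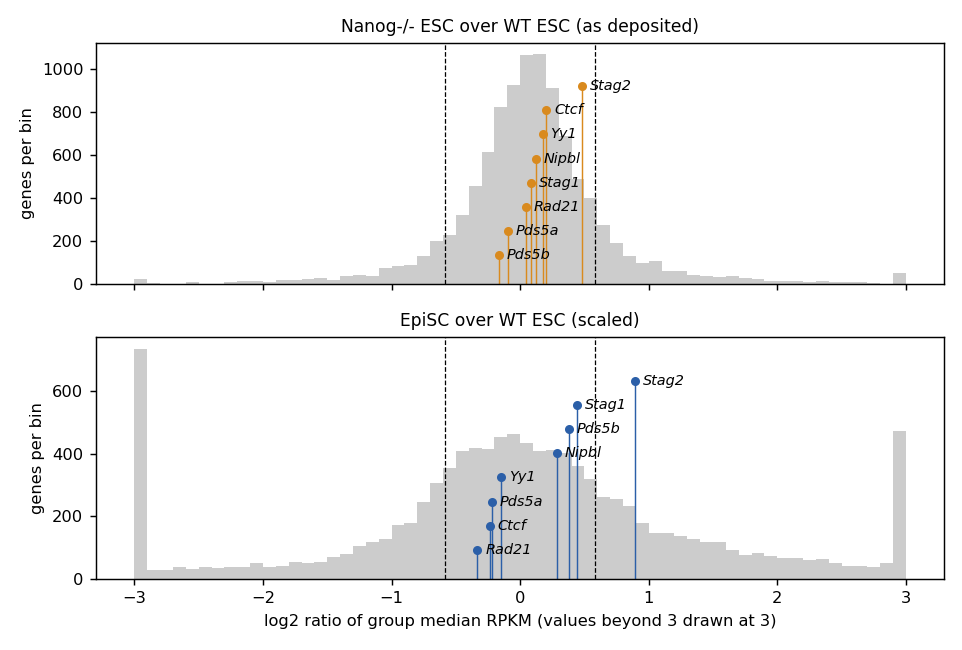
Log2 ratios of group median RPKM of the 8 genes (labelled stems) over the histogram of all genes at 1 RPKM or more in either state (grey, 0.1 per bin), for Nanog-/- against WT ESCs (top) and scaled EpiSCs against WT ESCs (bottom). Stem height only separates labels, and dashed lines mark 1.5-fold; all 8 stems lie between the lines at the top, and Stag2 at 0.90 lies outside them at the bottom.

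The wider pathway was counted over 5 lists, 40 genes in all, of which 28 were listed. In *Nanog*-/- ESCs 2 passed 1.5-fold upward, against 13.1% of all genes, and 4 downward, against 9.20%. In EpiSCs 1 was higher and 8 were lower, against 28.8% and 26.1%. None of the 4 listed condensin genes and none of the 4 listed SMC5/6 genes, which encode the sister complexes of cohesin, passed in either comparison.

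Of 9 cohesin partners, 2 were past 1.5-fold in *Nanog*-/- ESCs, both lower than in WT ESCs. *Esco2*, which acetylates the ring during replication, stood at 100.6 RPKM in WT ESCs, 61.6 RPKM in *Nanog*-/- ESCs, and 65.7 RPKM in EpiSCs (34.9 RPKM scaled). *Pttg1*, the securin that restrains the cohesin protease, stood at 74.6, 42.6, and 196.7 RPKM (104.3 RPKM scaled). In EpiSCs 3 partners were past 1.5-fold after scaling, all lower than in WT ESCs: *Esco2* with a ratio of 0.347, *Wapl* with 0.607, and *Sgol2*, a protector of centromeric cohesin, with 0.657, though as deposited *Wapl* and *Sgol2* were above their WT ESC levels.

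Of the germline counterparts, 4 were listed, with EpiSC values given as deposited. *Smc1b*, the meiotic form of SMC1, had 14.8 RPKM in WT ESCs, 2.76 RPKM in *Nanog*-/- ESCs, and 0.0385 RPKM in EpiSCs. *Ctcfl*, the germline paralog of CTCF, had 3.58, 1.12, and 0.527 RPKM. *Rec8*, the meiotic kleisin, had 13.8 RPKM in WT ESCs, 16.6 RPKM in *Nanog*-/- ESCs, and 0.396 RPKM in EpiSCs. *Rad21l*, another germline kleisin, passed 1.5-fold upward in *Nanog*-/- ESCs at 0.592 RPKM against 0.394 RPKM, both under the 1 RPKM that the background share required. In WT ESCs *Smc1b* and *Rec8* stood near the level of *Stag1*, the lowest member. *Smc1b*, *Ctcfl*, and *Rec8* were lower in EpiSCs both scaled and as deposited.

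Among 7 other looping factors, *Satb1*, a chromatin organizer first known from thymocytes, was higher by more than 1.5-fold in both comparisons, with 2.42 RPKM in WT ESCs, 4.13 RPKM in *Nanog*-/- ESCs, and 28.0 RPKM in EpiSCs (14.8 RPKM scaled). *Zfp143*, a promoter-binding factor found at loop anchors, had 41.6, 32.1, and 38.4 RPKM, with ratios of 0.773 in *Nanog*-/- ESCs and 0.490 in scaled EpiSCs, the latter past 1.5-fold. *Trim28*, a corepressor, had 970.2, 1046.0, and 825.2 RPKM, with a scaled EpiSC ratio of 0.451.

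Markers give the setting of these levels. *Nanog* itself stood at 417.7 RPKM in WT ESCs, 22.3 RPKM in *Nanog*-/- ESCs, and 360.6 RPKM in EpiSCs (191.2 RPKM scaled). Of the naive markers *Klf4*, *Esrrb*, and *Klf2*, all 3 were lower past 1.5-fold in scaled EpiSCs, and *Klf4* also in *Nanog*-/- ESCs, with ratios there of 0.341, 0.701, and 0.809. Of 5 primed markers, 3 were higher past 1.5-fold in scaled EpiSCs, and 2, *Fgf5* and *Fgf8*, were lower past it in *Nanog*-/- ESCs, with ratios of 0.234 and 0.161. Of 4 general pluripotency markers, 3 were lower past it in scaled EpiSCs, *Pou5f1* (0.650), *Sall4* (0.561), and *Sox2* (0.183). As deposited, *Pou5f1* and *Sall4* were above their WT ESC levels. All 4 stayed within 1.5-fold in *Nanog*-/- ESCs. The 4 primitive endoderm markers summed to 3.53 RPKM in WT ESCs and 57.7 RPKM in *Nanog*-/- ESCs, each of them higher there, and to 33.3 RPKM in EpiSCs (17.7 RPKM scaled). In scaled EpiSCs 3 of them were higher past 1.5-fold and 1, *Gata4*, was lower past it (ratio 0.402). The 4 fibroblast markers summed to 42.9, 53.8, and 298.7 RPKM in WT ESCs, *Nanog*-/- ESCs, and EpiSCs (158.4 RPKM scaled). The 2 listed cell cycle genes, *Ccnb1* and *Mcm2*, summed to 517.6, 507.6, and 530.3 RPKM in the same order (281.3 RPKM scaled). Beside the lower *Esco2* and *Sgol2* of scaled EpiSCs, *Ccnb1* had a ratio of 0.338 and *Mcm2* of 0.695. As deposited, *Mcm2* was higher than in WT ESCs (390.4 against 297.8 RPKM) and *Ccnb1* still lower. *Pttg1* went the other way, with a scaled ratio of 1.40. The part of other cells and of the cell cycle in the levels of the loop architecture genes and their partners was not tested.

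The lists hold 100492 contacts in WT ESCs and 87369 in EpiSCs, and 74931 in *Nanog*-/- ESCs, with a median cis distance of 138.7 kb, 140.6 kb, and 74.1 kb. With every list cut to its 74931 best-scoring contacts the medians were 133.5, 139.5, and 74.1 kb. Contacts above 800 kb made up 1.30% of the WT ESC list (Wilson 95% interval 1.23 to 1.37%), 1.78% of the EpiSC list (1.70 to 1.87%), and 0.370% of the *Nanog*-/- list (0.329 to 0.416%). WT ESC contacts that recurred in *Nanog*-/- ESCs spanned 74.1 kb in the median, and those that did not 187.6 kb. Each state has 1 list, so these are differences between lists, and intervals cover counting error only.

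Alongside this, the RNA values place *Rad21*, *Stag1*, *Nipbl*, *Pds5a*, *Pds5b*, *Ctcf*, and *Yy1* between 0.894 and 1.15 times their WT ESC level in the state with the short list, with *Stag2* at 1.40 times. The EpiSC list reached as far as that of WT ESCs. With EpiSC values scaled and *Nanog*-/- values as deposited, EpiSCs had the larger log2 shift in 7 of the 8, all but *Yy1*, up in some and down in others. With *Nanog*-/- values scaled too, *Yy1* also had the larger shift in EpiSCs (log2 ratio -0.15 against 0.10). Shifts were larger in EpiSCs over all genes too, with 54.9% past 1.5-fold against 22.3% in *Nanog*-/- ESCs. With the EpiSC scaling set on genes at 10 RPKM or more and *Nanog*-/- as deposited, *Ctcf* (log2 ratio -0.09) and *Pds5a* (-0.08) joined *Yy1* with the smaller shift in EpiSCs. Whether any of these levels bears on contact distance was not tested, and the values say nothing of protein, of ring loading, or of *Smc1a* and *Smc3*.

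The promoters of the loop architecture genes had few contacts themselves: 16 in WT ESCs and 15 in EpiSCs, and 7 in *Nanog*-/- ESCs. Their median distance was 132.4 kb, 124.3 kb, and 44.1 kb, shortest in *Nanog*-/- ESCs as over the whole lists. A median bait of these genes had 2 contacts in WT ESCs and 2 in EpiSCs, and 1 in *Nanog*-/- ESCs, where the median over all baits was 3, 3, and 2. *Nanog*-/- ESCs held 43.75% as many member contacts as WT ESCs, beside 74.6% for all contacts. This depended on the list: with lists cut to an equal number of contacts the member contacts were 8 in WT ESCs and 7 in *Nanog*-/- ESCs, and without contacts between promoters 3 and 4.

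**Figure D3:**
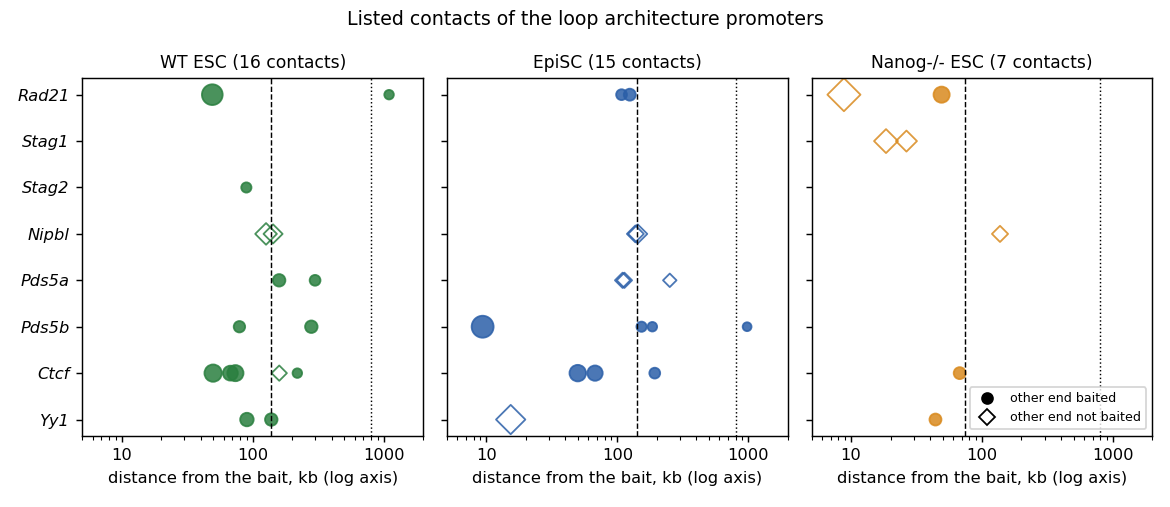
Listed contacts of each member promoter (rows) by distance from the bait in kb (log axis) in WT ESCs, EpiSCs, and Nanog-/- ESCs. Symbol area grows with the reads, filled circles have a baited other end and open diamonds do not, the dashed line is the median of the whole list (138.7, 140.6, and 74.1 kb), and the dotted line is 800 kb; the 7 Nanog-/- contacts lie between 8.82 and 137.1 kb.

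By bait, *Nanog*-/- ESCs had fewer contacts than WT ESCs at 6 of the 8 (60.7% of all baits had fewer), more at 1 (21.6%), and the same number at 1 (17.7%). *Pds5a*, *Pds5b*, and *Stag2* had none left listed, 3 of the 7 baits with a WT ESC contact, against 21.6% of all such baits. The median distance was shorter at 3 of the 4 baits with contacts in both lists, against 70.6%. EpiSCs had fewer contacts at 3 of the 8 baits (52.8% of all baits), more at 2 (33.5%), and the same number at 3 (13.7%). The EpiSC median distance was shorter at 5 of 6, against 51.2%, and 1 of 7 had none left, against 14.9%. With 8 baits these counts are a description of the baits and not of their genes as a class.

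**Figure D4:**
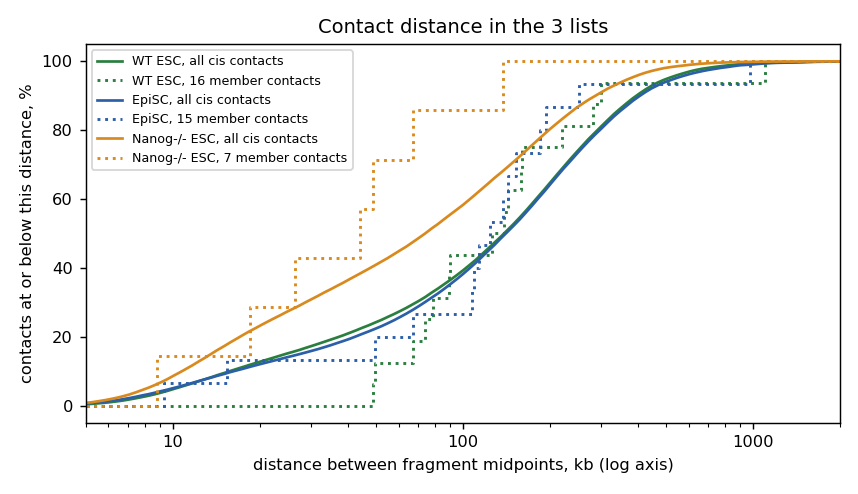
Cumulative share of contacts (%) by distance between fragment midpoints in kb (log axis), for all cis contacts of each list (solid) and for the contacts of the 8 member baits (dotted: 16 in WT ESCs, 15 in EpiSCs, 7 in Nanog-/- ESCs). The solid WT ESC and EpiSC curves nearly coincide and the Nanog-/- curve lies to their left; the dotted steps have medians of 132.4, 124.3, and 44.1 kb, and from 10 kb up the Nanog-/- steps also lie farthest left.

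Above 800 kb there was 1 member contact in WT ESCs (6.25%, Wilson 95% interval 1.11 to 28.3%), 1 in EpiSCs (6.67%, 1.19 to 29.8%), and none in *Nanog*-/- ESCs (0%, 0 to 35.4%). By a floor of 3 counts, 0 among 7 allows a share of up to 42.9%. A difference was not detectable at this depth. The WT ESC contact joined *Rad21* (chr15:51988294-51992959) to a baited fragment in an exon of *Trps1*, named for mir-1907, 1099 kb away (5 reads, score 5.13). The EpiSC contact joined *Pds5b* (chr5:150671767-150674920) to *Rfc3*, a clamp loader subunit of DNA replication, 978 kb away (4 reads, score 9.07). Both rest on very few reads.

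Of 32 different member contacts, 27 were in 1 list, 4 in 2 lists, and 1 in all 3. The same split was not counted over all contacts. Most of all WT ESC contacts also did not recur in EpiSCs, and most did not recur in *Nanog*-/- ESCs. From WT ESCs, 3 of 16 recurred in EpiSCs (18.75%, Wilson 95% interval 6.59 to 43.0%), where 39.6% of all contacts did, and 2 of 16 in *Nanog*-/- ESCs (12.5%, 3.50 to 36.0%), where 41.8% of all did. As a share of the other list, the recurring contacts were 20% of the 15 in EpiSCs and 28.6% of the 7 in *Nanog*-/- ESCs. A contact missing from a list can have fallen under the score limit rather than to 0 reads. With lists of equal number 37.5% of the 8 WT ESC contacts recurred in EpiSCs and 25% in *Nanog*-/- ESCs.

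The contact in all 3 lists joined the *Ctcf* promoter (chr8:105635582-105636943) to the fragment of *Acd*, a shelterin component at telomeres, 67.5 kb downstream. It had 15 reads and a score of 5.77 in WT ESCs, 16 reads and 7.65 in EpiSCs, and 9 reads and 5.42 in *Nanog*-/- ESCs. *Ctcf* also met *Rltpr* (now *Carmil2*, an actin-capping regulator), 49.8 kb away, in WT ESCs (21 reads, score 6.62) and EpiSCs (19 reads, 7.32). Its remaining promoter partners were *E130303B06Rik* (score 7.64, 73.7 kb) and the centromere gene *Cenpt* (7.32, 219.0 kb) in WT ESCs, and *Ranbp10* (5.78, 192.9 kb) in EpiSCs. *Ctcf* went from 5 contacts in WT ESCs to 3 in EpiSCs and 1 in *Nanog*-/- ESCs, all downstream of its start.

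*Rad21* had 2 contacts in each list. That with *Aard*, 49.1 kb upstream, was listed in WT ESCs with 31 reads and a score of 6.38, and in *Nanog*-/- ESCs with 18 reads and a score of 9.33. Beside it, *Nanog*-/- ESCs had a contact 8.82 kb away with the intergenic fragment upstream of the gene (40 reads, score 5.16). EpiSCs had neither, but contacts with *Utp23*, a ribosome biogenesis factor, and with *Eif3h*, a translation initiation subunit, 107.6 and 124.3 kb downstream with scores of 5.71 and 6.77. The median distance of the *Rad21* contacts was 574.0 kb in WT ESCs, a mean of the *Aard* and *Trps1* distances, 115.9 kb in EpiSCs, and 29.0 kb in *Nanog*-/- ESCs.

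*Nipbl* kept to 1 intergenic stretch upstream of its start in all 3 states, though on different fragments. In WT ESCs it met the fragments 126.3 kb away (16 reads, score 9.93) and 142.9 kb away (12 reads, 6.80), the latter being the one with the inward CTCF letters printed above. In EpiSCs the 142.9 kb contact had 12 reads and a score of 8.74, and the adjoining fragment 137.1 kb away (chr15:8579047-8583816) had 9 reads and 5.90. *Nanog*-/- ESCs had only the 137.1 kb contact, with 8 reads and a score of 7.65. This was the farthest of the 7 *Nanog*-/- member contacts, and the reach of this promoter was much alike in the 3 lists.

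*Stag1* was the bait with more contacts in *Nanog*-/- than in WT ESCs. This bait (chr9:100596686-100602840) holds the GENCODE start of *Stag1* but not its internal RefSeq start, whose fragment is counted below with the gene body. The bait had no contact in WT ESCs or EpiSCs and 2 in *Nanog*-/- ESCs. Both were with introns of *Stag1* itself, 18.5 kb (20 reads, score 5.39) and 26.5 kb (15 reads, 5.36) into the gene. *Stag2* had 1 contact in all, in WT ESCs with *Xiap*, an inhibitor of apoptosis, 89.4 kb away (6 reads, score 5.13). The member with the largest RNA shift therefore had at most 1 listed promoter contact per state.

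The PDS5 promoters had contacts in WT ESCs and EpiSCs only. *Pds5b* met the klotho gene *Kl*, 280.1 kb away, in WT ESCs with 10 reads and a score of 14.8, the highest of all member contacts, and *N4bp2l1*, 79.1 kb away, with 8 reads and 5.01. In EpiSCs it met *N4bp2l2* at 9.35 kb (35 reads, score 7.79), *Zar1l*, on a fragment shared with the DNA repair gene *Brca2*, at 152.9 kb (6 reads, 7.64), *snoU13.3* at 184.9 kb (5 reads, 6.84), and *Rfc3*. *Pds5a* met the shared fragment of *Smim14* and *Ube2k* (named *1110003E01Rik*) and *Rpl9*, a ribosomal protein gene, in WT ESCs, at 159.0 and 299.1 kb with scores of 5.35 and 5.10. In EpiSCs its 3 contacts were with unbaited fragments, the closest of them in *Ube2k*, and none of its WT ESC contacts recurred.

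With scores of 5.01 to 5.58, just above the limit of 5, a *Yy1* contact missing from a list can have fallen under that limit. Among listed contacts, the *Yy1* promoter (chr12:108791191-108795278) had different partners in each state. In WT ESCs it met *Degs2*, a sphingolipid desaturase gene, and the *Mir342* fragment in *Evl*, at 90.3 and 138.5 kb upstream with scores of 5.01 and 5.58. In EpiSCs its only contact was within its own intron, at 15.3 kb with 31 reads and a score of 5.49. In *Nanog*-/- ESCs it was with *Slc25a29*, a mitochondrial carrier gene, 44.1 kb downstream with 9 reads and a score of 5.05. The *Slc25a29* promoter itself met the *Yy1* gene body, outside the *Yy1* bait, in each list. Those contacts had 48 reads and a score of 5.85 in WT ESCs, and 23 reads and 5.46 in EpiSCs. In *Nanog*-/- ESCs they had 31 reads and 6.76, on the same fragment as in WT ESCs, and 18 reads and 5.29.

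Taken by class, 13 of 16 other ends were baited promoters in WT ESCs and 9 of 15 in EpiSCs, and 3 of 7 in *Nanog*-/- ESCs. No other end overlapped a super-enhancer of the authors' lists, 927 regions for ESCs and 896 for EpiSCs. *Nanog*-/- contacts were set against the ESC regions. Neither share was counted over all contacts of the lists, so these counts describe the few member contacts and are not shown to be traits of these genes. The *Smc1a* start (X chromosome, 152016428) lies in a baited fragment named for *Ribc1* (chrX:152009838-152018415). That fragment met *Hsd17b10*, a mitochondrial dehydrogenase gene 9.26 kb away, in all 3 lists, with 101 reads and a score of 12.7 in WT ESCs and 98 and 10.6 in EpiSCs, and 52 and 13.7 in *Nanog*-/- ESCs. Which of the promoters on it made the contact cannot be told apart.

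The gene bodies were also counted as targets of other promoters, in fragments that do not hold the gene's own GENCODE start. For *Stag1* they include the fragment of its internal RefSeq start. This count and the genes singled out from it were chosen after their values were seen. The 10 genes received 38 contacts in WT ESCs and 51 in EpiSCs, and 14 in *Nanog*-/- ESCs. Their median distances were 146.9, 131.0, and 31.1 kb. Over all protein-coding genes the totals were 52433, 42981, and 36098. Genes with fewer body contacts in *Nanog*-/- than in WT ESCs were *Ctcf*, *Nipbl*, *Stag1*, *Smc1a*, and *Pds5a*, 5 of the 8 with a contact in any list (62.5%), against 55.8% of 11798 such genes, and *Yy1* had more (12.5%, against 21.2%). In EpiSCs 5 of the 8 had more (*Nipbl*, *Stag1*, *Smc3*, *Smc1a*, and *Pds5b*), against 32.6%, and 1 of the 8, *Ctcf*, had fewer, against 50.3%.

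**Figure D5:**
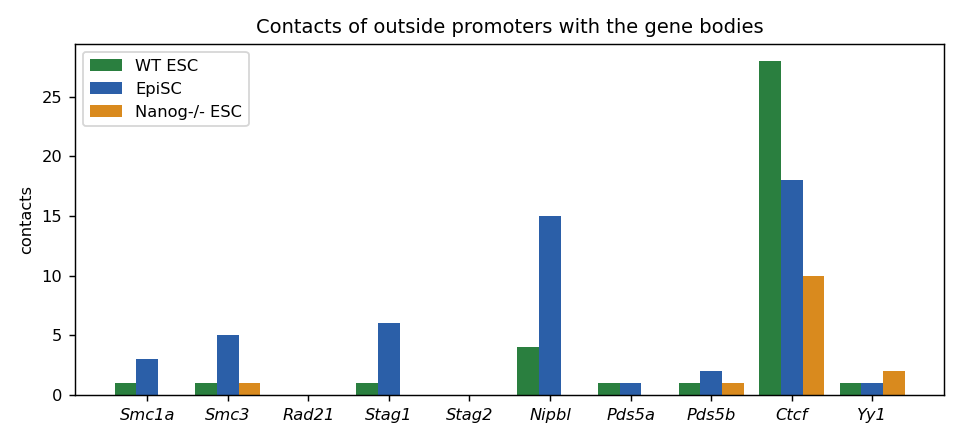
Number of listed contacts that promoters outside the gene made with each gene body, per list (bars; 1 combined list per state, so no error bars). Ctcf had 28, 18, and 10 contacts in WT ESCs, EpiSCs, and Nanog-/- ESCs, Nipbl 4, 15, and none, and Rad21 and Stag2 had none in any list.

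*Ctcf* was the most contacted body in each list, with 28 contacts in WT ESCs and 18 in EpiSCs, and 10 in *Nanog*-/- ESCs over a gene of 46.4 kb. The promoter of its downstream neighbor *Rltpr* made 11, 10, and 7 of these. In its strongest contact *Rltpr* met an intronic *Ctcf* fragment (chr8:105654189-105661990) 28.0 kb away, with 77, 48, and 30 reads and scores of 14.4, 14.4, and 14.0. That intron was met by 9 promoters in WT ESCs and 4 in EpiSCs, and 2 in *Nanog*-/- ESCs. The WT ESC partners reached from *Rltpr* to *Ddx28*, 356.0 kb away (9 reads, score 6.65); in *Nanog*-/- ESCs *Edc4* remained, 225.0 kb away (6 reads, score 5.78). None of the 13 contacted *Ctcf* body fragments held the CTCF letters, where fragments of like length carried a match in 10.8% on average. With 13 fragments this is no clear lack. The median distance of contacts with the *Ctcf* body was 120.3 kb in WT ESCs and 46.0 kb in EpiSCs, and 31.1 kb in *Nanog*-/- ESCs, so here the EpiSC value was nearer to that of *Nanog*-/- ESCs.

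*Nipbl* went the other way between WT ESCs and EpiSCs. Its body had 4 contacts in WT ESCs and 15 in EpiSCs, and none in *Nanog*-/- ESCs. The EpiSC number was 11 above that of WT ESCs, and 0.763% of genes had at least 11 more. That limit is the value of *Nipbl* itself, which was picked for it, and the genes were not matched for length (*Nipbl* spans 153.8 kb), so the share is no test. All *Nipbl* body contacts came from 2 baits, *U6.59* with 3 in WT ESCs and 8 in EpiSCs, and *2410089E03Rik* with 1 and 7. They spread over the gene with scores of at most 8.24 and 6 to 13 reads each in EpiSCs, and neighboring fragments met by the same bait are not independent contacts.

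*Stag1* had 1 body contact in WT ESCs and 6 in EpiSCs, and none in *Nanog*-/- ESCs. In EpiSCs 4 of the 6 came from *Nck1*, an SH2/SH3 adaptor gene, the strongest with 23 reads and a score of 10.1 at 95.1 kb. Both *Nck1* (16 reads, score 6.72) and the more distant *Msl2* (7 reads, 6.07, 428.8 kb) met the fragment that holds the internal RefSeq start of *Stag1* printed above. *Smc3* had 1, 5, and 1 contacts, all with the *Smndc1* promoter, at 215 to 251 kb. *Smc1a* had 1 contact in WT ESCs and 3 in EpiSCs, of which 2 were with *Iqsec2* at scores of 7.99 and 8.10. These reads were few, 4 to 6 per contact in *Smc3*.

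*Pds5a* had 1, 1, and no body contacts, *Pds5b* 1, 2, and 1, and *Yy1* 1, 1, and 2, while *Rad21* and *Stag2* had none. Those of *Yy1* were all with the *Slc25a29* promoter. Without *Ctcf* the body contacts were 10 in WT ESCs and 33 in EpiSCs, and 4 in *Nanog*-/- ESCs, with median distances of 146.9, 155.7, and 72.8 kb.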

How the data were processed

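PCHi-C and RNA-seq were analysed; the ChIP-seq files were not used here. By the study's methods, PCHi-C reads were processed with HiCUP, scored with CHiCAGO, and combined over biological replicates into 1 list per state. Each entry deposited by the authors holds the count of reads and the CHiCAGO score; no library depth is given by the lists, whose contacts hold 2177383 reads in WT ESCs and 1651422 in EpiSCs, and 1440356 in *Nanog*-/- ESCs. The RNA-seq table holds the RPKM that the authors reduced to 1 median per group (the column BT12 was read as *Nanog*-/-), and their fold changes with p-values, which were not used. The submitters' processing notes name Bowtie 1.1.0, TopHat, Trim Galore, and DESeq2, and GRCm38/mm10; their settings are not given in the sources used here.

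A contact listed from both ends was counted once, and distance is between fragment midpoints. HindIII sites were found at both ends of all 96056 fragments. A member's bait is the fragment that carries its name. EpiSC RPKM values were divided by the median EpiSC/WT ratio. A gene was called past 1.5-fold, among genes at 1 RPKM or more in either state; pathway counts had no such filter. With 1 value per state no test was made; the authors' p-values were left unused. Shares have Wilson 95% intervals. Members, lists, and counts were chosen with earlier results of these data known. All 10 members were named; of their contacts, those with the 3 highest scores per list, those above 800 kb, and those between promoters; of other pathway genes, those past 1.5-fold. Body contacts were added later. The RNA scaling and the recovery of fold changes were tested on simulated data. The counting of contacts was not. Python 3.11.15, numpy 2.4.6, pandas 2.3.3, scipy 1.17.1, and matplotlib 3.10.9 were used.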

Additional observations from a re-analysis of the deposited data

How the results depend on the processing

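No paired analysis was possible because the deposited values are group medians and combined lists, which carry no replicate numbers; for the same reason no replicate could be left out. The count of 0 members past 1.5-fold in *Nanog*-/- ESCs held at 2-fold, with a pseudocount of 1, with scaling, and without a filter. For EpiSCs the count of 1 became 0 at 2-fold, 2 when the scaling was set on genes at 10 RPKM or more, and 7 unscaled, and the median log2 ratio of 0.07 became 0.21 and 0.98 under the last pair of settings. At a score of at least 7 the contacts were 4 in WT ESCs and 6 in EpiSCs, and 2 in *Nanog*-/- ESCs, the *Nanog*-/- median distance was 93.1 kb, the share above 800 kb was 0 in WT ESCs and 16.7% in EpiSCs, and 0% of WT ESC contacts recurred in EpiSCs and 0% in *Nanog*-/- ESCs. At 10 reads or more the contacts were 10, 5, and 4, the EpiSC and *Nanog*-/- medians were 49.8 and 22.5 kb, and the WT ESC and EpiSC shares above 800 kb were 0. With lists cut to an equal number of contacts WT ESCs had 8 and a share of 0 above 800 kb, and recurrence was 37.5% in EpiSCs and 25% in *Nanog*-/- ESCs. Without contacts between promoters there were 3, 6, and 4 contacts, the WT ESC and EpiSC shares above 800 kb were 0, the *Nanog*-/- median was 22.5 kb, and 0% of WT ESC contacts recurred there. The *Nanog*-/- median stayed below that of WT ESCs in each of these settings. The low reads per contact limit every per-promoter value. Adding the *Ribc1* fragment that holds the *Smc1a* start, chosen after seeing the data, gave 18, 17, and 8 contacts.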
